A study of Mus musculus with 18 samples.

Results

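Between day 3 and day 5 of a mouse primed-to-naive conversion, most genes of the FGF-ERK response and of the Hox clusters and many of BMP signalling went down, and embryonic haemoglobins and most interferon-stimulated, lysosomal and mitochondrial fat oxidation genes went up. Trophoblast genes moved both ways, in numbers not far from the shares of all genes, with the syncytins higher and Cdx2 and Eomes lower. The comparison sets the 3 libraries labelled D5 against the 3 libraries labelled D3, which are 6 of the 18 RNA-seq libraries of the study. The other groups are EpiSC (epiblast stem cells, the primed start), D8, rES (the cells that came out of the conversion, as the title has it) and ESC (reference naive embryonic stem cells), with 3 libraries each. D5 and D3 share a single description in the labels: cells of the type Transient, of a stem cell line, from mouse embryo. The days come from the sample titles. No genotype, transgene or drug is given for any of these groups, and the sources used here say nothing of growth conditions. Nor is it said whether the 3 libraries of a day came from separate cultures. The p-values therefore measure only the spread between libraries of a group, which may be technical. That spread was estimated over all 18 libraries, not from D5 and D3 alone.

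Primed cells resemble the epiblast after implantation and depend on FGF and Activin, while naive cells resemble the epiblast before implantation and are usually held with LIF and with inhibitors of MEK and GSK3. On the way between these states cells can also pass through mixed or extra-embryonic programmes, and trophoblast, endoderm and mesoderm genes are the usual ones to look at. Fatty acids enter mitochondria through the carnitine shuttle, whose first enzyme is Cpt1a, the gene in the title of the study.

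D5 libraries held 65.2, 63.2 and 61.2 M counts and D3 libraries 58.4, 63.3 and 68.7 M. No library stood apart: log2 levels correlated at 0.9804 to 0.9816 between D5 libraries, at 0.9812 to 0.9837 between D3 libraries and at 0.9162 to 0.9234 between the days. Levels are given below in CPM (counts per 1000000 counts of the library, after scaling), per library in replicate order and otherwise as mean ± SD (n = 3 a day). CPM are not divided by gene length, so they compare days for a gene, not genes with each other. Differences are log2, D5 minus D3, with their approximate SE, and adjusted p comes from edgeR's quasi-likelihood test with Benjamini-Hochberg adjustment over all genes. A gene was called, and is said to have risen or fallen, where adjusted p was at most 0.05.

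The step was wide. Of 17545 genes tested, 10437 (59.5%) were called: 5251 rose (29.9%) and 5186 fell (29.6%). A change of at least 2-fold was called upward for 2355 genes (13.4%) and downward for 2695 (15.4%), and one of at least 4-fold for 1033 and 1389 genes. In 11327 genes (64.6%) the 3 D5 libraries did not overlap the 3 D3 libraries, D5 being higher in 32.4% and lower in 32.2% of all genes. The median log2 difference was 0, and the median size of the difference, whatever its sign, was 0.693. About 3 genes in 10 thus moved each way, and the counts of each list below are to be read against those shares. Where a list is said below to have no member that rose, or none that fell, edgeR also gave 0 such members at unadjusted p under 0.05 and DESeq2 called 0.

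**Figure D1:**
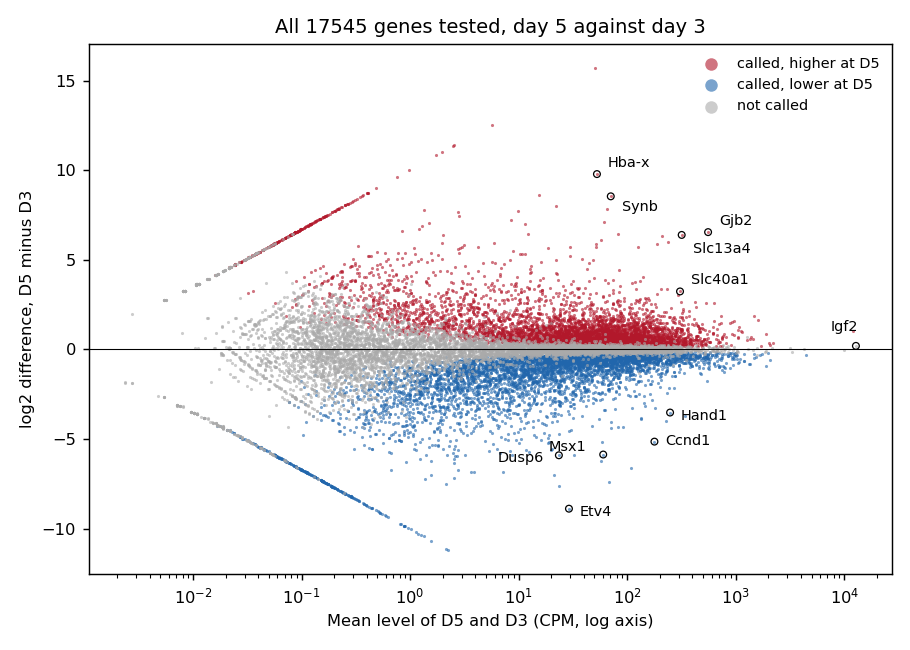
Each point is a gene: the x axis is its mean level over D5 and D3 (CPM, log axis) and the y axis its log2 difference, D5 minus D3. Red points were called higher at D5 (5251), blue points lower (5186) and grey points were not called; 11 genes that the text describes are ringed.

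The labels give a stem cell line as the source, and of the factors that define pluripotent stem cells Pou5f1 and Sox2 were low at both days. Pou5f1 had 5.1, 3.63 and 12.3 CPM at D5, against 15.6, 30.5 and 36.6 CPM at D3, and it averaged 331 CPM in EpiSC and 329 CPM in ESC. It fell further over the step (log2 -1.98 ± 0.39, adjusted p = 0.000253), with no overlap between the days. Sox2, its partner on DNA, averaged 8.43 ± 2.87 CPM at D5 and 11.3 ± 0.958 CPM at D3, which overlapped (adjusted p = 0.223), against 189 CPM in EpiSC and 279 CPM in ESC. The 13 pluripotency factors shared by primed and naive cells, these included, had a summed level of 274 to 313 CPM at D5 and 873 to 939 CPM at D3. The 19 trophoblast regulators and markers had a summed level of 2410 to 2750 CPM at D5 and 2240 to 2400 CPM at D3. The 15 placental differentiation genes tested summed to 636 to 670 CPM at D5 and 1030 to 1140 CPM at D3. Such sums compare the days within a list, not the lists with each other, and abundant members weigh most in them. The RNA was taken in bulk, so fewer cells of a type and less RNA per cell cannot be told apart in any of the results.

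Response genes of the FGF-ERK pathway fell almost as a body. FGF receptors signal through RAS to the kinase ERK, which switches on ETV factors and a set of its own inhibitors, the Sprouty and Spred proteins and the phosphatase Dusp6. Of 18 such genes 17 fell and 1 rose, 15 of them fell at least 2-fold, and the median log2 difference was -3.93. Their summed level was 192 to 199 CPM at D5, against 1150 to 1190 CPM at D3.

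Etv4, an ETS factor induced by FGF, had 0.128, 0 and 0.236 CPM at D5, against 46.5, 61.5 and 66.2 CPM at D3 (log2 -8.89 ± 0.38, adjusted p = 2.85e-12), the largest fall among the genes ranked. Spry4, a Sprouty inhibitor, had 0.192, 0.294 and 0.202 CPM at D5, against 50.4, 46.3 and 42.7 CPM at D3 (log2 -7.65 ± 0.23, adjusted p = 5.63e-14). Dusp6 had 0.786, 0.457 and 1.06 CPM at D5, against 46.6, 45.7 and 46.4 CPM at D3 (log2 -5.91 ± 0.19). In each of these genes every D5 library lay below every D3 library. Ccnd1, the G1 cyclin that mitogens induce, had 10.3, 8.69 and 10.4 CPM at D5, against 347, 360 and 335 CPM at D3 (log2 -5.15 ± 0.15, adjusted p = 5.51e-14). Fosl1, an AP-1 subunit, averaged 0.235 ± 0.198 CPM at D5 and 13.1 ± 2.89 CPM at D3. The exception was Myc, a growth factor-induced transcription factor, at 63.6 ± 3.02 CPM at D5 and 44.7 ± 3.8 CPM at D3 (log2 0.51 ± 0.10, adjusted p = 0.000183). All 7 Sprouty and Spred genes tested fell, a family chosen after its values were seen, with a summed level of 16.5 to 19.4 CPM at D5 and 336 to 377 CPM at D3. Spred1 averaged 7.7 ± 0.845 CPM at D5 and 156 ± 19 CPM at D3.

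BMP signalling acts through SMAD1 and SMAD5 on the Id genes, which block differentiation factors of the helix-loop-helix class, and on homeobox genes of the Msx and Dlx families. Of 24 ligands, targets and regulators 12 fell and 4 rose (median log2 -1.07). Msx1 had 1.6, 1.99 and 2.48 CPM at D5, against 120, 116 and 119 CPM at D3 (log2 -5.87 ± 0.45, adjusted p = 3.54e-09). Id1 had 42.7, 41.4 and 36.4 CPM at D5, against 211, 261 and 273 CPM at D3 (log2 -2.63 ± 0.14, adjusted p = 3.21e-11). Both genes were lower in all D5 libraries than in any D3 library, as were Id3 (31.6 ± 1.96 CPM at D5, 252 ± 19 CPM at D3), Id4 (3.34 ± 1.13 CPM at D5, 26.2 ± 0.718 CPM at D3) and Dlx2 (1.03 ± 0.265 CPM at D5, 37.4 ± 3.13 CPM at D3). Receptor and transducer genes moved both ways: Bmpr1a rose to 291 ± 25 CPM at D5, against 181 ± 28.6 CPM at D3, and Smad1 to 37.9 ± 1.9 CPM at D5, against 26.9 ± 0.938 CPM at D3, while Smad5 fell to 86.8 ± 3.05 CPM at D5, against 129 ± 9.14 CPM at D3, and Bmpr2 and Smad9 were not called. Smad7, an inhibitory SMAD, was at 69.7 ± 7.04 CPM at D5 and 75.8 ± 6.49 CPM at D3, which overlapped (adjusted p = 0.476). Msx2 was called higher at adjusted p = 0.0486, a call lost when any library of either day was left out (adjusted p 0.0542 to 0.178).

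WNT ligands and targets fell in 15 of 20 cases and rose in 3 (median log2 -1.01, or -0.67 with Sfrp5, which had no counts at D5 and lay under the detection floor at D3, taken as no difference and named after its values were seen). The ligand Wnt6 averaged 3.13 ± 0.9 CPM at D5 and 115 ± 8.32 CPM at D3 (log2 -5.20 ± 0.22, adjusted p = 1.17e-11), and the ligand Wnt3 averaged 0.699 ± 0.131 CPM at D5 and 17.5 ± 2.34 CPM at D3. Lef1, a nuclear partner of beta-catenin and itself a target, averaged 7.27 ± 0.19 CPM at D5 and 39.6 ± 2.83 CPM at D3. The 3 that rose belong to the R-spondin receptor system on the cell surface. They were the receptor Lgr5 (81.1 ± 4.98 CPM at D5, 22.1 ± 2.39 CPM at D3) and the ubiquitin ligases Znrf3 (79.1 ± 2.84 CPM at D5, 28.1 ± 1.4 CPM at D3) and Rnf43 (12.2 ± 1.08 CPM at D5, 4.49 ± 0.757 CPM at D3), which remove WNT receptors. In the LIF-STAT3 pathway 6 of 14 genes rose and 6 fell. The ligand Lif rose to 66.9 ± 4.2 CPM at D5, against 20.7 ± 1.84 CPM at D3, while its receptor Lifr fell to 9.65 ± 1.69 CPM at D5, against 30.7 ± 1.45 CPM at D3. Socs3, the feedback inhibitor that STAT3 induces, fell to 24.1 ± 1.37 CPM at D5, against 83.6 ± 14.1 CPM at D3, and the kinase gene Pim3 rose to 423 ± 3.6 CPM at D5, against 122 ± 11.4 CPM at D3.

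Of the 39 Hox genes tested, which pattern the body axis and lie in 4 clusters, 35 fell, each of them at least 2-fold, and none rose. Their summed level was 34.1 to 34.6 CPM at D5, against 175 to 187 CPM at D3, and the median log2 difference was -3.68, or -3.22 with the 3 genes without counts at D5 held at their bound from the detection floor, or at 0 where D3 was under that floor too. Hoxc9 had 0.176, 0.18 and 0 CPM at D5, against 11, 14.9 and 16.6 CPM at D3 (log2 -6.86 ± 0.74, adjusted p = 2.98e-07). Hoxd9 had 0.401, 0.539 and 0.472 CPM at D5, against 20.4, 23.4 and 24.5 CPM at D3 (log2 -5.59 ± 0.34, adjusted p = 8.9e-10). The days did not overlap in either. All 10 Hoxb, 9 Hoxc and 9 Hoxd genes were called lower, and 7 of 11 Hoxa genes, a split by cluster made after the values were seen. Those not called included Hoxa3, Hoxa4 and Hoxa5. In 2 Hox genes not called, every D5 library lay above every D3 library. The Hoxa genes summed to 24.2 to 27.1 CPM at D5, most of the Hox level left there, against 43.6 to 45.4 CPM at D3.

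**Figure D2:**
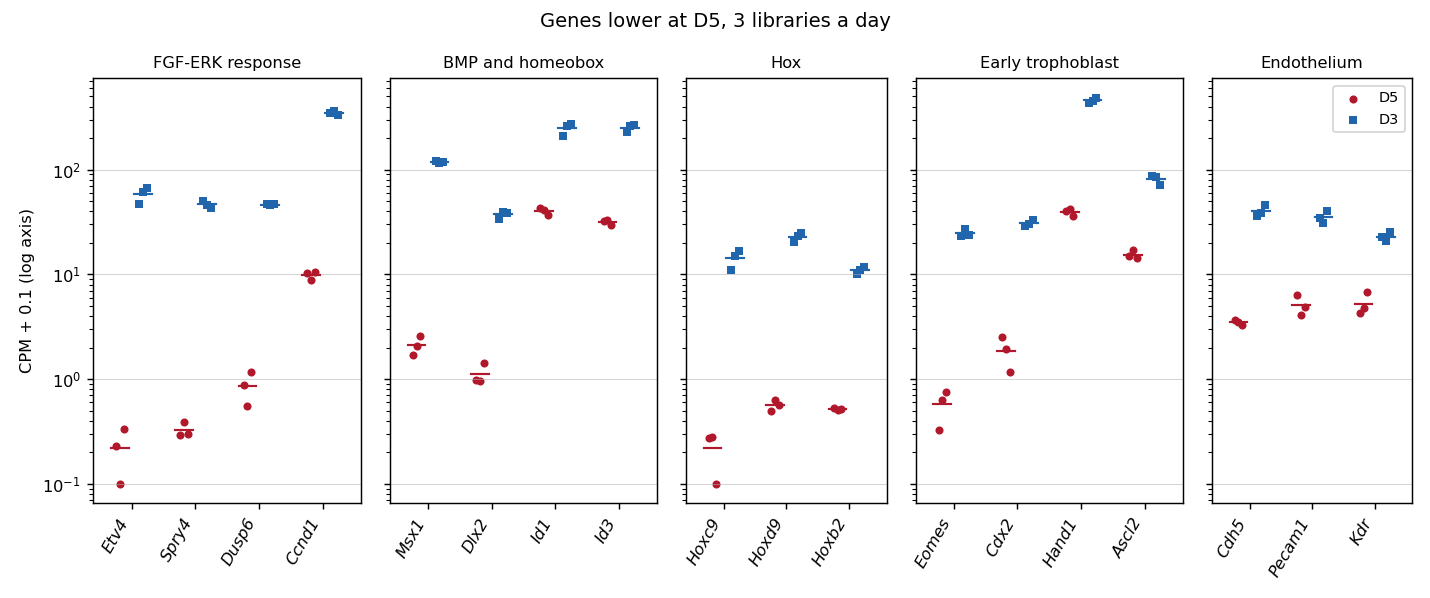
Levels of 18 genes that fell, in the 3 D5 libraries (red circles, left) and the 3 D3 libraries (blue squares, right) of each; the y axis is CPM + 0.1 on a log axis and short lines are means. In all of them the D5 libraries lie below the D3 libraries, from Etv4 at 0 to 0.236 CPM at D5 to Hand1 at 434 to 486 CPM at D3. The early trophoblast panel includes Hand1, which also acts in giant cells and mesoderm.

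The trophoblast list moved both ways, in numbers not far from the shares of all genes. In the mouse placenta, Cdx2, Eomes and Ascl2 mark stem and early cells, Gcm1 drives the syncytiotrophoblast of the labyrinth, and the fusion proteins syncytin A and B (Syna and Synb) make its layers. Of 19 trophoblast regulators and markers 6 rose (31.6%) and 8 fell (42.1%, median log2 -0.20). Of 15 placental differentiation genes 4 rose and 4 fell (26.7% each, median 0). Among all genes tested 29.9% rose and 29.6% fell.

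Gcm1 had 113, 87.1 and 104 CPM at D5, against 2.06, 1.94 and 1.08 CPM at D3 (log2 5.91 ± 0.38, adjusted p = 3.35e-10). Synb had 154, 124 and 145 CPM at D5, against 0.359, 0.612 and 0.171 CPM at D3 (log2 8.54 ± 0.39, adjusted p = 2.38e-10). Syna had 9.16, 7.81 and 7.93 CPM at D5, against 0.13, 0.184 and 0.157 CPM at D3 (log2 5.70 ± 0.52, adjusted p = 3.08e-08). The days lie far apart in these genes of the syncytial layers. Gjb2, a connexin known as the labyrinth's channel for glucose between these layers, had 1059.0, 1101.0 and 1146.8 CPM at D5, against 13.2, 11.3 and 11 CPM at D3 (log2 6.54 ± 0.32, adjusted p = 1.05e-11). Psg17, a pregnancy-specific glycoprotein gene, rose to 16.2 ± 0.788 CPM at D5, against 0.517 ± 0.0706 CPM at D3. Slc13a4, a sulphate transporter of the placenta, rose to 629 ± 38.7 CPM at D5, against 7.52 ± 0.505 CPM at D3. The homeobox genes Rhox6 (229 ± 32.8 CPM at D5, 32.8 ± 1.44 CPM at D3) and Rhox9 (150 ± 19.9 CPM at D5, 23.2 ± 6.67 CPM at D3) and the factor Gata2 (857 ± 68.6 CPM at D5, 368 ± 21.9 CPM at D3) rose by less. Placental lactogen Prl3b1, named after its values were seen, was near 0, with a mean of 0.0225 CPM at D5 and no counts at D3.

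Other trophoblast factors, early ones among them, fell in the same libraries. Of these, Eomes is also a member of the streak and mesoderm list below, in which 10 of 15 genes fell. Eomes had 0.225, 0.539 and 0.658 CPM at D5, against 23.3, 27.2 and 23.7 CPM at D3 (log2 -5.71 ± 0.31, adjusted p = 5.15e-11). Cdx2 had 2.41, 1.83 and 1.08 CPM at D5, against 28.8, 30.3 and 33.3 CPM at D3 (log2 -4.12 ± 0.32, adjusted p = 1.74e-08). Hand1, which drives giant cells and also acts in heart and limb mesoderm, had 40.6, 42.4 and 36.1 CPM at D5, against 434, 453 and 486 CPM at D3 (log2 -3.53 ± 0.28, adjusted p = 1.73e-08). No D5 library reached a D3 library in any of them. Ascl2 fell to 15.3 ± 1.39 CPM at D5, against 81.3 ± 8.88 CPM at D3. The other trophoblast list members that fell were Tfap2a, Esx1, Id2 and Sox21, while Dlx3, Elf5 and Tead4 were not called. Esx1, Id2, Sox21, Elf5 and Tead4 are named after their values were seen. In the placental list Plac8, Plet1, Slc2a3 and Lifr fell. Tfap2c, needed by trophoblast from the start, was at 225 ± 7.33 CPM at D5 and 201 ± 6.77 CPM at D3 and was not called (adjusted p = 0.301), nor was the ETS factor Ets2 (77.6 ± 1.32 CPM at D5, 89.3 ± 4.33 CPM at D3, adjusted p = 0.0835, and 0.022 in a fit of the 6 libraries alone).

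The 5 haemoglobin genes that could be tested rose, and none was above 1.87 CPM in a D3 library. In the mouse embryo, red cells of the yolk sac make the embryonic chains first: the alpha-like chain Hba-x and the beta-like chains Hbb-y and Hbb-bh1. Of 17 haemoglobin and erythroid genes tested 13 rose and 1 fell (median log2 3.72), and their summed level was 330 to 377 CPM at D5, against 28.2 to 38.4 CPM at D3. Hba-x (chr11:32276400-32278116, + strand, GRCm38) had 111, 96.6 and 108 CPM at D5, against 0.375, 0 and 0 CPM at D3 (log2 9.78 ± 0.61, adjusted p = 4.32e-08). Hbb-bh1 (chr7:103841637-103843164, - strand) had 25.2, 28 and 39.3 CPM at D5, against 0.179, 0.0612 and 0 CPM at D3 (log2 8.61 ± 0.57, adjusted p = 6.66e-08). Hbb-y (chr7:103851749-103853216, - strand) had 7.89, 12.5 and 13.9 CPM at D5 and no counts in the D3 libraries, which makes it at least 62-fold higher at D5 given a floor of 12 counts per library. The D5 and D3 libraries were apart in each of these genes. The other 5 beta-globin symbols of the list, Hbb-bt, Hbb-bs, Hbb-b1, Hbb-b2 and Hbb-bh2, had no counts in any D5 or D3 library, which allows up to 0.197 CPM at D5 and 0.184 CPM at D3. The first 4 of these are adult beta chains of closely similar sequence, and whether reads that fit several of them were counted is not given in the sources used here.

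The adult alpha chains rose too, but cannot be split. Hba-a1 (chr11:32283511-32284465, + strand) and Hba-a2 (chr11:32296489-32297298, + strand) are near-identical copies, and D5 replicate 2 had most of its counts on Hba-a2 (26.8 CPM for Hba-a1, 121 CPM for Hba-a2) while D5 replicates 1 and 3 had them on Hba-a1 (129 and 149 CPM, with 2.9 and 4.25 CPM for Hba-a2). Summed, the pair had 132, 147 and 154 CPM at D5, against 0.93, 1.87 and 1.28 CPM at D3. The erythroid factors Klf1 (3.63 ± 0.438 CPM at D5, 0.551 ± 0.169 CPM at D3, adjusted p = 0.00018) and Gata1 (8.67 ± 1.82 CPM at D5, 1.69 ± 0.426 CPM at D3, adjusted p = 0.00138) and the haem enzyme gene Alas2 (5.74 ± 0.819 CPM at D5, 0.431 ± 0.263 CPM at D3) also rose. These genes are list members picked for mention after their values were seen. Tal1, which acts earlier in blood formation, overlapped at 7.36 ± 0.518 CPM at D5 and 8.67 ± 2.05 CPM at D3 (adjusted p = 0.641), and its partner Lmo2 fell to 1.02 ± 0.297 CPM at D5, against 6.74 ± 1.51 CPM at D3.

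Blood vessel genes went the opposite way. Of 14 blood and endothelial markers 12 fell and none rose, or 1 without D3 replicate 3 (median log2 -2.55), with a summed level of 52.6 to 59.8 CPM at D5, against 168 to 198 CPM at D3. Cdh5, the cadherin of endothelial junctions, had 3.59, 3.38 and 3.17 CPM at D5, against 36.4, 38.2 and 46.1 CPM at D3 (log2 -3.57 ± 0.44, adjusted p = 1.54e-06). Kdr, the main VEGF receptor, had 4.14, 4.65 and 6.71 CPM at D5, against 22.4, 20.7 and 25.1 CPM at D3 (log2 -2.14 ± 0.19, adjusted p = 2.49e-08). Both were below every D3 library in every D5 library. Etv2, which starts the endothelial and blood lineage and is named after its values were seen, had no counts at D5, against 2.02 CPM at D3, and was at least 10.3-fold lower. Ptprc, the marker of white blood cells, was near 0 at both days (0.092 CPM at D5, 0.126 CPM at D3).

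Interferon-stimulated genes rose strongly. Cells that sense viral or their own double-stranded RNA through Ddx58 (RIG-I) and Ifih1 (MDA5), or that receive interferon, activate a complex that includes Irf9 and binds the interferon-stimulated response element (ISRE) in promoters of effector genes such as the Ifit, Oas and Isg15 genes. Of 25 genes of this group 21 rose, all at least 2-fold, and 4 fell. Their median log2 difference was 3.59 and their summed level 1350 to 1420 CPM at D5, against 324 to 404 CPM at D3.

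The stretches of promoter below belong to the genes Ifit1, Ifit3, Isg15 and Rsad2 and are shown because these antiviral effectors are textbook carriers of the element. Each runs 5' to 3' on the gene's strand from 140 to 21 bases before the transcription start (RefSeq, GRCm38.p6). Capitals mark matches to GAAANNGAAA or its reverse complement. The spans are chr19:34640749-34640868 (+) for Ifit1, chr19:34583389-34583508 (+) for Ifit3, chr4:156200839-156200958 (-) for Isg15 and chr12:26456473-26456592 (-) for Rsad2.
Ifit1: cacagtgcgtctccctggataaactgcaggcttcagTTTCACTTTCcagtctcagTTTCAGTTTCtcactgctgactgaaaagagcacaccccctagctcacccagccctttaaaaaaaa
Ifit3: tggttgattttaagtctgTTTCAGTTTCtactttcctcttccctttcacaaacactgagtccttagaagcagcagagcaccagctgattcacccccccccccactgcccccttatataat
Isg15: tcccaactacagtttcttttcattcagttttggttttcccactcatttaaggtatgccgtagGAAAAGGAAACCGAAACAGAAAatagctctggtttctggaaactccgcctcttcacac
Rsad2: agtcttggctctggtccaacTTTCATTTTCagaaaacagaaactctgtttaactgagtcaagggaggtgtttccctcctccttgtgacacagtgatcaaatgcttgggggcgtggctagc

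The Isg15 stretch holds 3 overlapping matches, the Ifit1 stretch 2, and the Ifit3 and Rsad2 stretches 1 each. Over the 250 bases before the start, on both strands, the letters GAAANNGAAA occur in 936 of 27025 mouse genes in the table (3.46%). They occur in 8 of the 19 listed interferon genes that the table holds (42.1%), and in 7 of the 15 of these that were called higher (46.7%). The motif was chosen with the result known, and a match describes the sequence, not binding. Its share describes the list, not the step between the days. Motifs of erythroid factors were looked for in the erythroid list too. The letters AGATAA occurred in 4 of 11 of those genes and in 1 of the 8 called higher, against 11.4% of all genes. The letters CCACACCC occurred in 0 of 11, against 3.68% of all genes.

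Ifit1 had 19.8, 18.1 and 21.4 CPM at D5, against 0.163, 0 and 0.114 CPM at D3 (log2 7.72 ± 0.67, adjusted p = 5.65e-08). Ifit3 had 5.15, 4.36 and 5.89 CPM at D5 and no counts at D3, at least 27.9-fold higher at D5. Isg15, a ubiquitin-like modifier, had 61.8, 60.6 and 53.3 CPM at D5, against 0.701, 0.994 and 1.57 CPM at D3 (log2 5.73 ± 0.41, adjusted p = 1.32e-09). The days were apart in these 3 genes, as in the Oas genes that sense double-stranded RNA, Oasl2 (102 ± 5 CPM at D5, 1.99 ± 0.251 CPM at D3) and Oas1a (20.1 ± 0.785 CPM at D5, 0.488 ± 0.143 CPM at D3). Rsad2 (viperin), also named after its values were seen, averaged 92.4 ± 4.9 CPM at D5 and 5.94 ± 1.81 CPM at D3. Several factors and sensors of the pathway rose as well, and are named after their values were seen: Irf7 (28.7 ± 2.61 CPM at D5, 2.39 ± 0.224 CPM at D3), Irf9 (74.7 ± 4.96 CPM at D5, 7.02 ± 0.436 CPM at D3), Ddx58 (124 ± 4.75 CPM at D5, 9.51 ± 1.84 CPM at D3) and Ifih1 (92 ± 5.5 CPM at D5, 10.4 ± 2.68 CPM at D3). The 4 that fell were the membrane proteins Ifitm1, Ifitm2 and Ifitm3, which stem cells express without interferon, and the factor Irf1, whose call (adjusted p = 0.0218) was lost without D3 replicate 2 or 3 and without D5 replicate 2 or 3 (0.056 to 0.0657). Ifitm1 was at 5.66 ± 0.624 CPM at D5 and 37 ± 0.58 CPM at D3 (log2 -2.71 ± 0.14, adjusted p = 2.71e-11).

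Genes that load and present MHC class I followed. Of 14 tested 10 rose and none fell, or 1 without D5 replicate 1 (median log2 1.31). The heavy chain H2-D1 averaged 124 ± 4.27 CPM at D5 and 36.9 ± 4.64 CPM at D3 (log2 1.75 ± 0.11, adjusted p = 4.18e-10), and the peptide transporter subunit Tap1 averaged 14.2 ± 2.21 CPM at D5 and 3.59 ± 0.361 CPM at D3. Of the proteasome genes, the activator subunit Psme2 rose to 96.1 ± 5.51 CPM at D5, against 19.05 ± 0.207 CPM at D3, while the inducible catalytic subunit Psmb8 stayed low at 0.74 ± 0.171 CPM at D5 and 0.376 ± 0.119 CPM at D3 (adjusted p = 0.325).

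**Figure D3:**
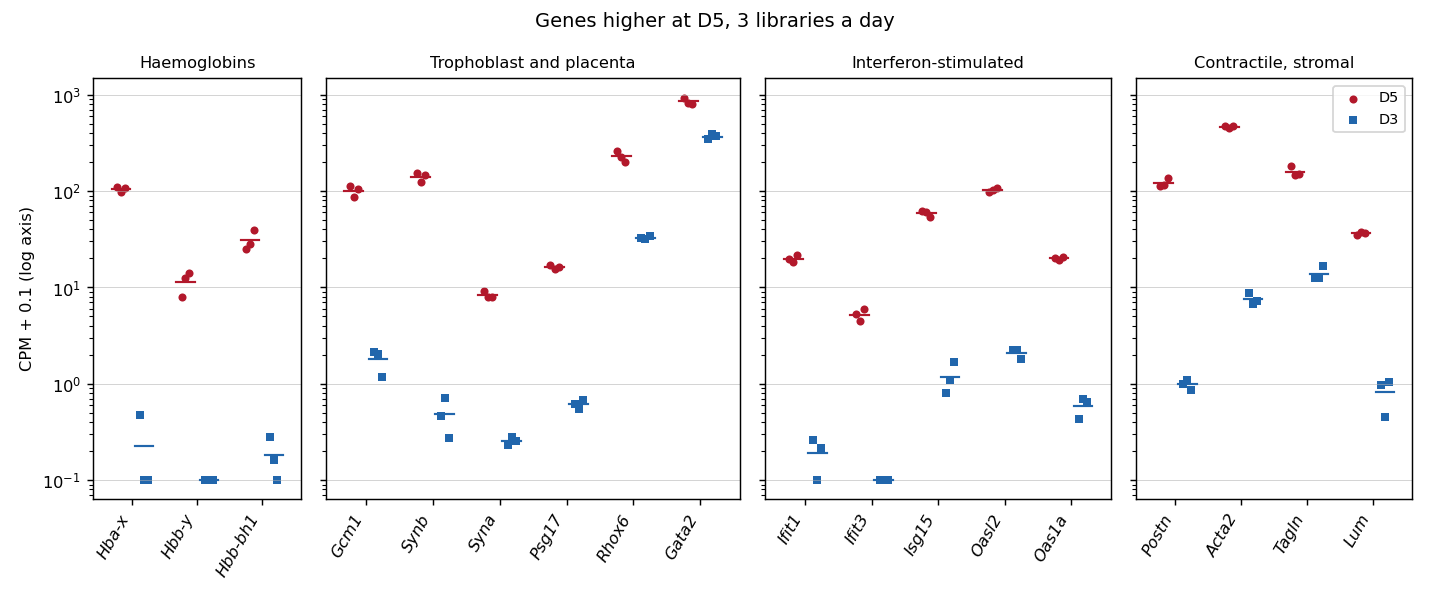
Levels of 18 genes that rose, in the 3 D5 libraries (red circles, left) and the 3 D3 libraries (blue squares, right) of each; the y axis is CPM + 0.1 on a log axis and short lines are means. Haemoglobin, syncytin and Ifit genes have 0 to 0.612 CPM at D3, and every D5 library lies above every D3 library.

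Most fat oxidation genes of mitochondria rose, by smaller folds. Long-chain fatty acids are carried into cells, bound to carnitine by Cpt1a at the outer mitochondrial membrane, moved across by Slc25a20, released by Cpt2 and then shortened by the acyl-CoA dehydrogenases and the trifunctional protein. Of 7 carnitine shuttle genes 6 rose and none fell (median log2 0.80), and of 17 mitochondrial beta-oxidation enzymes 13 rose and none fell (median 0.86). The summed level of the enzymes was 1440 to 1460 CPM at D5, against 796 to 857 CPM at D3.

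Cpt1a had 43.1, 43 and 40.5 CPM at D5, against 25.2, 23.8 and 23.9 CPM at D3 (log2 0.80 ± 0.11, adjusted p = 3.73e-06). Cpt2 had 86.3, 96.1 and 93.6 CPM at D5, against 50.7, 47.2 and 40.4 CPM at D3 (log2 1.00 ± 0.12, adjusted p = 1.68e-06). Slc22a5, the carnitine importer, had 33.5, 31.9 and 33.5 CPM at D5, against 9.35, 10.1 and 9.15 CPM at D3 (log2 1.79 ± 0.12, adjusted p = 1.03e-09). Every D5 library lay above every D3 library in these genes. The neuronal form Cpt1c was at 17.8 ± 0.976 CPM at D5 and 16.8 ± 1.3 CPM at D3 and overlapped (adjusted p = 0.523). Among the enzymes, the long-chain dehydrogenase Acadl (19.12 ± 3.85 CPM at D5, 5.31 ± 0.75 CPM at D3), the electron carrier Etfb (94.6 ± 2.05 CPM at D5, 31.2 ± 7.61 CPM at D3) and the trifunctional subunit Hadhb (205 ± 10.2 CPM at D5, 76.6 ± 5.46 CPM at D3) rose most. Echs1 (77.7 ± 3.06 CPM at D5, 80.2 ± 3.57 CPM at D3) and Acad9 (56.7 ± 1.4 CPM at D5, 56.3 ± 1.85 CPM at D3) overlapped between the days.

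Peroxisomes shorten very long fatty acids, and 8 of 14 of their oxidation genes rose and 1 fell (median log2 1.01). The importer Abcd3 rose to 226 ± 6.96 CPM at D5, against 47.6 ± 4.28 CPM at D3 (log2 2.25 ± 0.10, adjusted p = 3.31e-12). Ehhadh, the bifunctional enzyme, rose to 33.6 ± 2.95 CPM at D5, against 8.52 ± 1.24 CPM at D3. Of 15 PPAR and RXR receptors, coactivators and targets 7 rose and 2 fell, or 1 without D3 replicate 3 or any D5 library. Pparg, the receptor that drives fat storage in adipocytes and is also needed by the placental labyrinth, had 129, 140 and 143 CPM at D5, against 10.1, 9.61 and 8.41 CPM at D3 (log2 3.88 ± 0.31, adjusted p = 2.18e-08), with no overlap. Ppara, the receptor that drives fat oxidation in liver, was near 1 CPM at both days (0.994 ± 0.389 CPM at D5, 0.969 ± 0.165 CPM at D3). Fabp3, a fatty acid carrier, rose to 409 ± 84.8 CPM at D5, against 121 ± 49.5 CPM at D3, and the coactivator gene Ppargc1b to 42 ± 3.09 CPM at D5, against 10.4 ± 0.813 CPM at D3.

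Storage genes moved both ways: 13 of 27 triglyceride and lipid droplet genes rose and 7 fell (median log2 0.37). Plin4, a droplet coat protein of adipocytes, rose to 14.1 ± 0.49 CPM at D5, against 0.516 ± 0.149 CPM at D3 (log2 4.76 ± 0.47). Dgat2, which adds the last acyl chain of triglyceride, rose to 260 ± 10.3 CPM at D5, against 114 ± 1.16 CPM at D3, and Dgat1, which can do the same, overlapped at 20 ± 1 CPM at D5 and 18.6 ± 1.1 CPM at D3. The monoacylglycerol enzymes Mogat2 (9.04 ± 0.802 CPM at D5, 37 ± 3.88 CPM at D3) and Mgll (14 ± 0.806 CPM at D5, 28 ± 0.662 CPM at D3) fell.

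In fatty acid synthesis 6 of 19 genes rose and 7 fell, near the shares of all genes. Scd1, which makes monounsaturated chains, had 1444.8, 1439.2 and 1438.4 CPM at D5, against 489.3, 480.1 and 471.0 CPM at D3 (log2 1.59 ± 0.10, adjusted p = 2e-10). The 7 that fell were the desaturases Fads1 (152 ± 4.05 CPM at D5, 316 ± 14.9 CPM at D3), Fads2 (265 ± 22 CPM at D5, 365 ± 12.7 CPM at D3), the elongases Elovl2 (2.06 ± 0.457 CPM at D5, 10.9 ± 1.67 CPM at D3), Elovl4 (4.72 ± 0.71 CPM at D5, 21.1 ± 3.49 CPM at D3) and Elovl6 (176 ± 11.8 CPM at D5, 249 ± 19.4 CPM at D3), the fatty acid synthase Fasn (1498.8 ± 112.4 CPM at D5, 1836.2 ± 118 CPM at D3) and the sugar-responsive factor Mlxipl (1.9 ± 0.433 CPM at D5, 4.43 ± 0.298 CPM at D3). Acly, which makes the acetyl-CoA that synthesis starts from, overlapped between the days at 680 ± 42.6 CPM at D5 and 653 ± 59.7 CPM at D3. The desaturases Scd2, Fads3 and Fads6 were not called.

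Phospholipid and sphingolipid genes moved both ways. Of 22 phospholipid genes 10 rose and 8 fell. Of the isoenzymes that make CDP-choline, Pcyt1a rose to 198 ± 13.3 CPM at D5, against 86.9 ± 2.05 CPM at D3 (log2 1.19 ± 0.08), and Pcyt1b fell to 2.86 ± 0.357 CPM at D5, against 10.9 ± 1.77 CPM at D3 (log2 -1.93 ± 0.15). Of the lysophosphatidylcholine acyltransferases, Lpcat2 rose to 12.9 ± 0.913 CPM at D5, against 4.94 ± 0.284 CPM at D3, and Lpcat1 fell to 39.3 ± 2.51 CPM at D5, against 103 ± 6.91 CPM at D3. Of 28 sphingolipid genes 15 rose and 8 fell. Of the ceramide synthases, which differ in the chain length they add, Cers3 rose to 22.8 ± 1.27 CPM at D5, against 2.15 ± 0.287 CPM at D3 (log2 3.40 ± 0.39, adjusted p = 6.67e-07), and Cers4 fell to 9.53 ± 1.43 CPM at D5, against 31.8 ± 3.44 CPM at D3 (log2 -1.74 ± 0.11, adjusted p = 4.76e-10). Cers6 overlapped at 20.7 ± 1.73 CPM at D5 and 24 ± 4.23 CPM at D3 (adjusted p = 0.111, and 0.0267 without D3 replicate 2). The sphingomyelin synthase Sgms2 rose to 48.9 ± 1.14 CPM at D5, against 13.9 ± 0.251 CPM at D3.

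Cholesterol genes moved both ways: of 25 tested, 8 rose and 10 fell. The exporter Abca1 had 544, 532 and 530 CPM at D5, against 87.3, 85.7 and 83.2 CPM at D3 (log2 2.65 ± 0.19, adjusted p = 1.34e-09). The exporter Abcg1 had 181, 186 and 178 CPM at D5, against 68.6, 77.5 and 79 CPM at D3 (log2 1.27 ± 0.14, adjusted p = 5.31e-07). No D3 library reached a D5 library in either. The synthesis enzymes Tm7sf2 (8.35 ± 0.138 CPM at D5, 17.5 ± 2.16 CPM at D3) and Nsdhl (44.5 ± 5.59 CPM at D5, 80.4 ± 3.96 CPM at D3) fell.

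Lysosomal genes rose in 20 of 22 cases and fell in none (median log2 0.95), with a summed level of 6770 to 7080 CPM at D5, against 3210 to 3310 CPM at D3. Scarb2, a membrane receptor that sorts glucocerebrosidase, had 240, 232 and 247 CPM at D5, against 41.8, 41.7 and 44.9 CPM at D3 (log2 2.48 ± 0.08, adjusted p = 9.99e-14), and the days did not overlap. The cathepsin Ctsb rose to 942.8 ± 39.9 CPM at D5, against 310.3 ± 9.37 CPM at D3, and Tfeb, a master regulator of these genes, to 82.8 ± 3.41 CPM at D5, against 28.1 ± 2.92 CPM at D3. Cd63 overlapped at 208 ± 7.18 CPM at D5 and 226 ± 31.1 CPM at D3.

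Iron genes rose in 8 of 13 cases and fell in 1. The only known iron exporter, Slc40a1 (ferroportin), had 567, 534 and 564 CPM at D5, against 65.4, 61.3 and 50.6 CPM at D3 (log2 3.23 ± 0.17, adjusted p = 2.08e-11), with no overlap. The transferrin receptor Tfrc had 1083.2, 1106.0 and 1267.2 CPM at D5, against 358.8, 308.8 and 278.8 CPM at D3 (log2 1.87 ± 0.11, adjusted p = 1.16e-10), again with no overlap. Hmox1, which opens the haem ring, rose to 338 ± 17.8 CPM at D5, against 124 ± 9.85 CPM at D3, and Slc25a37, the mitochondrial importer, to 55.9 ± 2.33 CPM at D5, against 18.9 ± 1.84 CPM at D3. Fth1, the ferritin heavy chain that stores iron, fell to 422 ± 4.04 CPM at D5, against 623 ± 39.7 CPM at D3. The ferritin light chain Ftl1, named after its values were seen, was called higher.

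Enzymes of the tricarboxylic acid cycle rose in 15 of 18 cases and fell in 2, or 1 without D3 replicate 3 (median log2 0.52), by less than 2-fold in all but 1. That was Ogdh, a subunit of the 2-oxoglutarate dehydrogenase, at 706 ± 36.4 CPM at D5 and 333 ± 5.84 CPM at D3 (log2 1.09 ± 0.08, adjusted p = 1.01e-09). Citrate synthase, Cs, rose to 609 ± 8.64 CPM at D5, against 403 ± 18 CPM at D3. Of 82 nuclear-encoded respiratory chain subunits 40 rose and 5 fell (median 0.30). The list was matched by symbol and holds Ndufb4c, annotated as a processed pseudogene; without it 39 of 81 rose and 5 fell (median 0.29). Among the subunits that rose was Ndufv3 of complex I, at 60.2 ± 7.23 CPM at D5 and 17.6 ± 5.57 CPM at D3. Glycolysis genes fell in 11 of 23 cases and rose in 5. The glucose transporter genes Slc2a1 and Slc2a3 moved in opposite directions: Slc2a1 had 2276.6, 2497.2 and 2534.5 CPM at D5, against 712.2, 787.6 and 849.6 CPM at D3 (log2 1.64 ± 0.13), and Slc2a3 had 264, 238 and 242 CPM at D5, against 787, 909 and 828 CPM at D3 (log2 -1.76 ± 0.13). The days were apart in both. Hexokinase Hk2 fell to 42.2 ± 5.35 CPM at D5, against 96.4 ± 14.6 CPM at D3, and the lactate dehydrogenase subunit Ldhb rose to 279 ± 18.8 CPM at D5, against 41.6 ± 2.71 CPM at D3. Of 14 choline and betaine enzymes 5 rose and 4 fell, among them the choline dehydrogenase Chdh (77.8 ± 7.81 CPM at D5, 29.9 ± 3.06 CPM at D3), which rose, and Ahcy, which clears the by-product of methylation (81.9 ± 1.77 CPM at D5, 305 ± 24.8 CPM at D3), which fell.

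**Figure D4:**
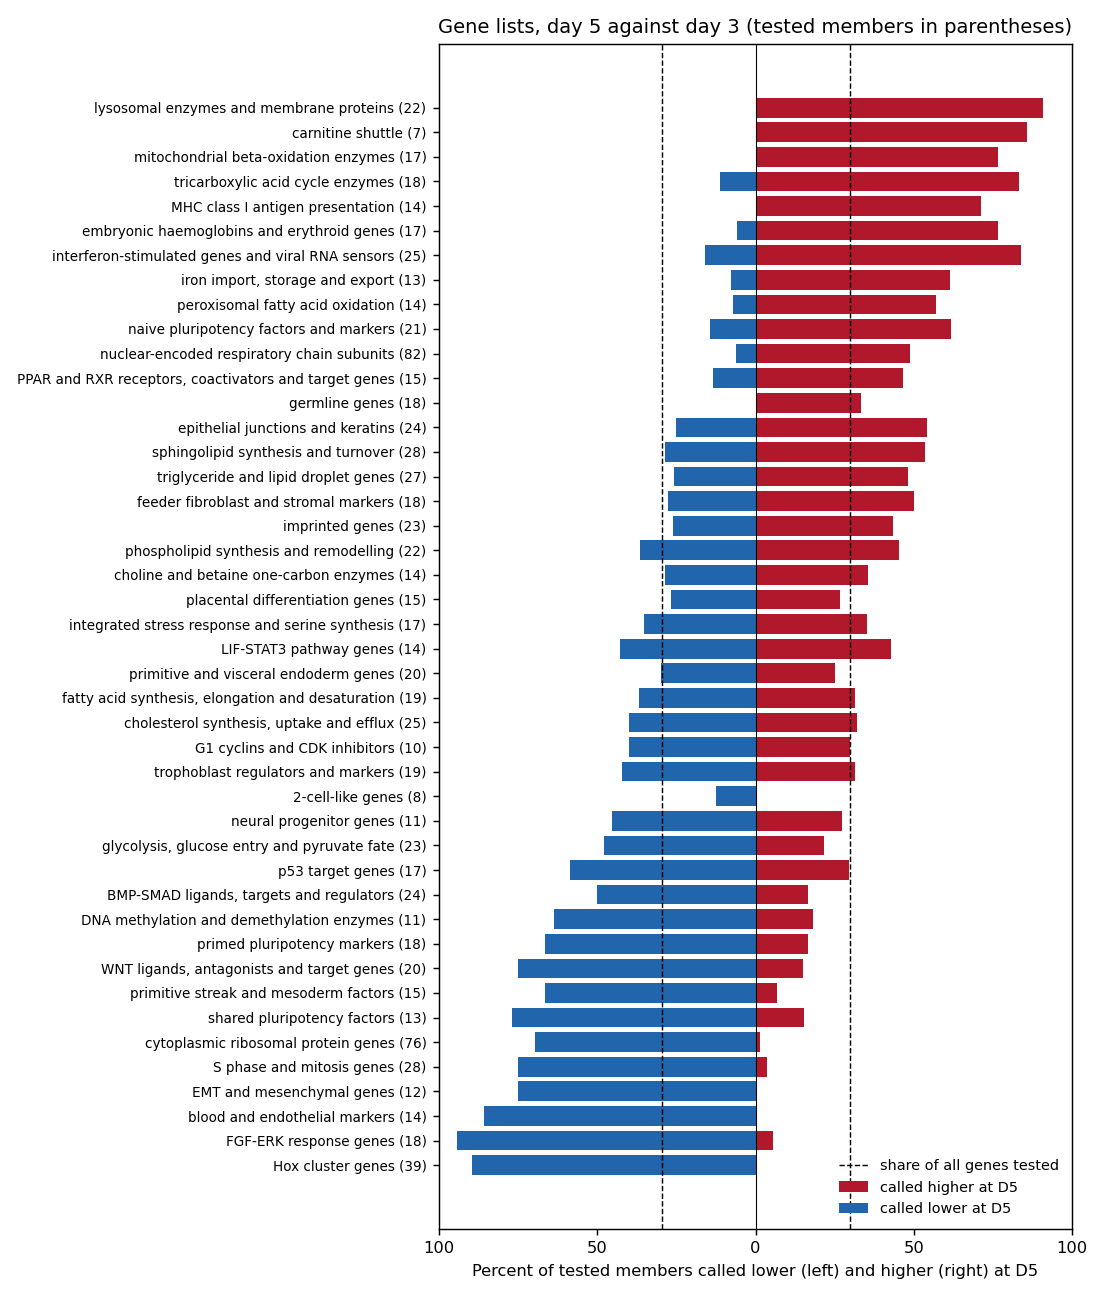
Percent of the tested members of each gene list called lower (blue, to the left) and higher (red, to the right) at D5 relative to D3, with the number tested in parentheses; dashed lines mark the shares among all genes tested (29.6% and 29.9%). FGF-ERK response, Hox and endothelial lists reach furthest left, and the lysosomal, carnitine shuttle, interferon and tricarboxylic acid cycle lists furthest right.

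Most S phase and ribosomal protein genes fell. Of 28 S phase and mitosis genes 21 fell, 4 of them at least 2-fold, and 1 rose (median log2 -0.54), among them the replication helicase subunits Mcm7 (126 ± 6.46 CPM at D5, 324 ± 11.2 CPM at D3) and Mcm4 (121 ± 3.02 CPM at D5, 264 ± 19.4 CPM at D3), while the proliferation marker Mki67 overlapped at 235 ± 2.32 CPM at D5 and 253 ± 48.2 CPM at D3. Of 76 ribosomal protein genes 53 fell and 1, Rpl4, rose, none by 2-fold (median -0.37). Besides Ccnd1, the D cyclins Ccnd2 (7.98 ± 0.637 CPM at D5, 134 ± 5.1 CPM at D3) and Ccnd3 (174 ± 9.98 CPM at D5, 282 ± 25.8 CPM at D3) fell. The inhibitor Cdkn1b rose to 61.2 ± 3.57 CPM at D5, against 20.5 ± 1.29 CPM at D3. The inhibitors Cdkn1c and Cdkn2b rose too, Cdkn1a fell, and Cdkn2a, Cdkn2c and Cdkn2d were not called. In the whole list of 10 G1 cyclins and CDK inhibitors 3 rose and 4 fell (30.0% and 40.0%, median log2 -0.03), against 29.9% and 29.6% of all genes. Of 17 p53 target genes, Trp53 itself included, 10 fell and 5 rose. Trp53 had 38.8, 42.5 and 34.2 CPM at D5, against 174, 198 and 201 CPM at D3 (log2 -2.31 ± 0.12, adjusted p = 4.17e-11), with no overlap. Its target Sesn1, which FOXO factors also induce, rose to 78.6 ± 6.4 CPM at D5, against 13.6 ± 0.18 CPM at D3, and Mdm2 overlapped at 172 ± 7.42 CPM at D5 and 171 ± 18.1 CPM at D3. Of 17 stress response and serine synthesis genes 6 rose and 6 fell. The serine synthesis enzymes Phgdh (87.2 ± 7.64 CPM at D5, 247 ± 5.05 CPM at D3) and Psat1 (103 ± 6.38 CPM at D5, 298 ± 10.7 CPM at D3) fell, and the stress factor Ddit3 rose (16.4 ± 0.93 CPM at D5, 4.26 ± 0.493 CPM at D3).

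Naive pluripotency genes rose at low levels. Of 21 naive factors and markers 13 rose and 3 fell (median log2 1.63), but their summed level was 358 to 476 CPM at D5 and 360 to 375 CPM at D3. Nanog had 17.4, 13.8 and 19.4 CPM at D5, against 4.76, 4.28 and 3.64 CPM at D3 (log2 1.995 ± 0.17, adjusted p = 1.66e-08), with no overlap. It averaged 278.7 CPM at D8 and 1114.5 CPM in ESC. Dppa5a, an RNA-binding protein of naive cells, had 24.4, 13.1 and 22.9 CPM at D5, against 2.59, 2.13 and 1.7 CPM at D3 (log2 3.24 ± 0.27, adjusted p = 1.32e-08). Zfp42 (Rex1) rose to 3.49 ± 0.55 CPM at D5, against 1.12 ± 0.224 CPM at D3. Klf4 was called higher at 106 ± 21.2 CPM at D5 and 76.6 ± 7.36 CPM at D3 (adjusted p = 0.0313), a call lost without D5 replicate 1 (adjusted p = 0.191) and without D3 replicate 1 or 3 (0.103 and 0.0707). Esrrb, an orphan nuclear receptor, fell to 14.1 ± 5.06 CPM at D5, against 23.9 ± 0.036 CPM at D3 (adjusted p = 0.0152, and 0.084 without D5 replicate 2). Tfcp2l1 overlapped between the days at 91.3 ± 7.71 CPM at D5 and 87.6 ± 5.87 CPM at D3.

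Of 18 primed markers 12 fell and 3 rose, or 1 in a fit of the 6 libraries alone. Pou3f1, a POU factor of the primed state, fell to 23.4 ± 4.46 CPM at D5, against 46.6 ± 6.32 CPM at D3, and Dnmt3b, the de novo DNA methyltransferase, to 38.3 ± 2.58 CPM at D5, against 105 ± 6.53 CPM at D3. Otx2 was under 1 CPM in all 6 libraries and overlapped (adjusted p = 0.206), and Fgf5, at 0.776 ± 0.367 CPM at D5 and 0.143 ± 0.132 CPM at D3, was called higher near the floor (adjusted p = 0.00249, and 0.0504 in a fit of the 6 libraries alone). Of 13 shared pluripotency factors 10 fell and 2 rose. Lin28a, which blocks maturation of let-7, had 19, 17.9 and 16.4 CPM at D5, against 236, 246 and 273 CPM at D3 (log2 -3.82 ± 0.11, adjusted p = 5.51e-14), with no overlap. Tdgf1, a Nodal co-receptor, rose to 75.3 ± 5.33 CPM at D5, against 21.5 ± 1.16 CPM at D3. Among 11 DNA methylation genes 7 fell and 2 rose, and the dioxygenases split: Tet3 (243 ± 26.2 CPM at D5, 85.2 ± 5.31 CPM at D3) and Tet2 (16.5 ± 1.35 CPM at D5, 6.75 ± 1.8 CPM at D3) rose and Tet1 (8.91 ± 1.89 CPM at D5, 25.6 ± 3.35 CPM at D3) fell. Of 18 germline genes 6 rose, or 3 in a fit of the 6 libraries alone, among them Tex19.1 (28.3 ± 2.52 CPM at D5, 4.03 ± 0.731 CPM at D3). The 8 tested genes of 2-cell-like cells summed to at most 0.192 CPM at D5 and 0.179 CPM at D3.

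Markers of connective tissue and feeder cells moved as well. Of 18 such markers 9 rose and 5 fell, and their summed level was 1820 to 1980 CPM at D5, against 940 to 1190 CPM at D3. Postn, a matrix protein, had 113, 116 and 137 CPM at D5, against 0.897, 0.994 and 0.77 CPM at D3 (log2 7.10 ± 0.30, adjusted p = 2.6e-12). The smooth muscle actin Acta2 had 476, 451 and 477 CPM at D5, against 8.6, 6.68 and 7.18 CPM at D3 (log2 5.97 ± 0.24, adjusted p = 1.34e-12). The proteoglycans Lum (36.5 ± 1.49 CPM at D5, 0.725 ± 0.324 CPM at D3) and Dcn (17.6 ± 0.453 CPM at D5, 1.35 ± 0.389 CPM at D3) rose too. Fibroblast collagen Col1a1, however, overlapped at 441 ± 25.8 CPM at D5 and 404 ± 64.6 CPM at D3 (adjusted p = 0.626), and the fibroblast surface markers Thy1 (2.34 ± 0.646 CPM at D5, 38.3 ± 6.56 CPM at D3) and Pdgfrb (14 ± 1.93 CPM at D5, 56.7 ± 7.3 CPM at D3) fell. Of the other collagens in the list Col1a2, Col3a1 and Col5a2, named after their values were seen, rose. Col6a1 and Col6a2 fell, and Col5a1 was not called. The part of connective tissue and feeder cells in the other results was not tested.

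Of 12 EMT and mesenchymal genes 9 fell and none rose, including the repressors of E-cadherin Snai1 (9.36 ± 1.48 CPM at D5, 69.1 ± 8.06 CPM at D3) and Twist1 (2.07 ± 0.721 CPM at D5, 21.7 ± 6.28 CPM at D3). Of 24 epithelial junction and keratin genes 13 rose and 6 fell, led by the tight junction protein Tjp3 (132 ± 6.19 CPM at D5, 14.7 ± 1.53 CPM at D3, log2 3.17 ± 0.12), with Krt8, named after its values were seen, at 2451.6 ± 75.5 CPM at D5 and 1360.3 ± 141 CPM at D3. This list holds only some keratins and claudins. Of all 23 keratin genes tested 4 rose and 11 fell (median log2 -1.0), though their summed level was 4330 to 4650 CPM at D5, against 2330 to 2860 CPM at D3. Of all 18 claudins tested 4 rose and 4 fell (median -0.26). Both families were chosen after their values were seen. Of 15 streak and mesoderm factors 10 fell, Eomes of the trophoblast list among them, and 1, Hand2, rose. Isl1, of heart and limb progenitors, was at 0.0618 ± 0.107 CPM at D5 and 7.21 ± 1.28 CPM at D3. Visceral endoderm genes moved near the shares of all genes, 5 of 20 higher and 6 lower, and 2 lower without D5 replicate 2 or 3 lower without D5 replicate 1 or D3 replicate 2. The endoderm factor Gata6 had no overlap between the days but was not called (12.8 ± 2.95 CPM at D5, 9.69 ± 0.599 CPM at D3, adjusted p = 0.205). Of 11 neural genes 5 fell, among them the progenitor filament Nes (15.4 ± 0.899 CPM at D5, 56.5 ± 12.1 CPM at D3). Another 3, Pax6, Sox1 and Olig3, were called higher near the detection floor, at means of 0.235, 0.174 and 0.393 CPM at D5, against 0.0696, 0.0584 and 0.111 CPM at D3. The list had 0 or 1 gene called higher in 7 of the alternatives, among them leaving out D3 replicate 1 or 3 or D5 replicate 1 or 3. These genes were named after their values were seen.

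Imprinted genes, expressed from a single parental copy and many of them active in placenta, rose in 10 of 23 cases and fell in 6. Plagl1, a zinc finger factor, rose to 248 ± 31.4 CPM at D5, against 51.5 ± 11.3 CPM at D3, and Slc22a18 to 106 ± 6.93 CPM at D5, against 13.8 ± 1.51 CPM at D3 (log2 2.95 ± 0.15, adjusted p = 2.02e-11). Mest fell to 34 ± 2.95 CPM at D5, against 326 ± 30.7 CPM at D3 (log2 -3.26 ± 0.13, adjusted p = 1.34e-12). Igf2, a fetal growth factor, was not called, at 13681.1 ± 115.5 CPM at D5 and 11967.5 ± 540.7 CPM at D3 (adjusted p = 0.209, and 0.0162 in a fit of the 6 libraries alone). Its neighbour H19, a noncoding RNA, was called lower at 990.3 ± 3.09 CPM at D5 and 1738.5 ± 447.6 CPM at D3.

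The D8 libraries show where these genes stood next. They share the D5 libraries with the comparison above, so each step is given by its own values. Of the genes tested 8265 (47.1%) were called between D8 and D5, 4397 higher at D8 (25.1%) and 3868 lower (22.0%). Naive factors had 19 of 21 genes higher at D8 than at D5, and interferon genes 17 of 25, with Isg15 at 106 CPM at D8. Of the 17 haemoglobin and erythroid genes 8 were lower at D8: Hba-x averaged 27.1 CPM at D8 and had no counts in rES or ESC. Gcm1 was lower at D8, at 41.7 CPM. Of 19 trophoblast regulators and markers 3 were higher and 9 lower at D8. Of 15 placental differentiation genes, however, 10 were higher and 2 lower at D8. Gjb2 was called higher, at 3314 CPM at D8, and Synb, at 206 CPM at D8, was not called. BMP genes were lower in 14 of 24 cases. ERK response genes were higher in 11 of 18 cases, with Ccnd1 at 27.9 CPM at D8, below its 259 CPM in rES and 200 CPM in ESC. Hox genes were higher at D8 in 6 of 39 cases. Cpt1a averaged 1.61 CPM in EpiSC, 24.3 CPM at D3, 42.2 CPM at D5, 90.2 CPM at D8, 300 CPM in rES and 192 CPM in ESC, and its difference between D8 and D5 was called. Cpt2 was not called, at 81.2 CPM at D8, and averaged 27.9 CPM in rES and 26.4 CPM in ESC. At D8, 3 of 7 carnitine shuttle genes were higher and 0 lower. Of 17 beta-oxidation enzymes 9 were higher and 5 lower. Tricarboxylic acid cycle enzymes were higher in 1 and lower in 13 of 18 cases, and respiratory chain subunits higher in 4 and lower in 35 of 82.

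**Figure D5:**
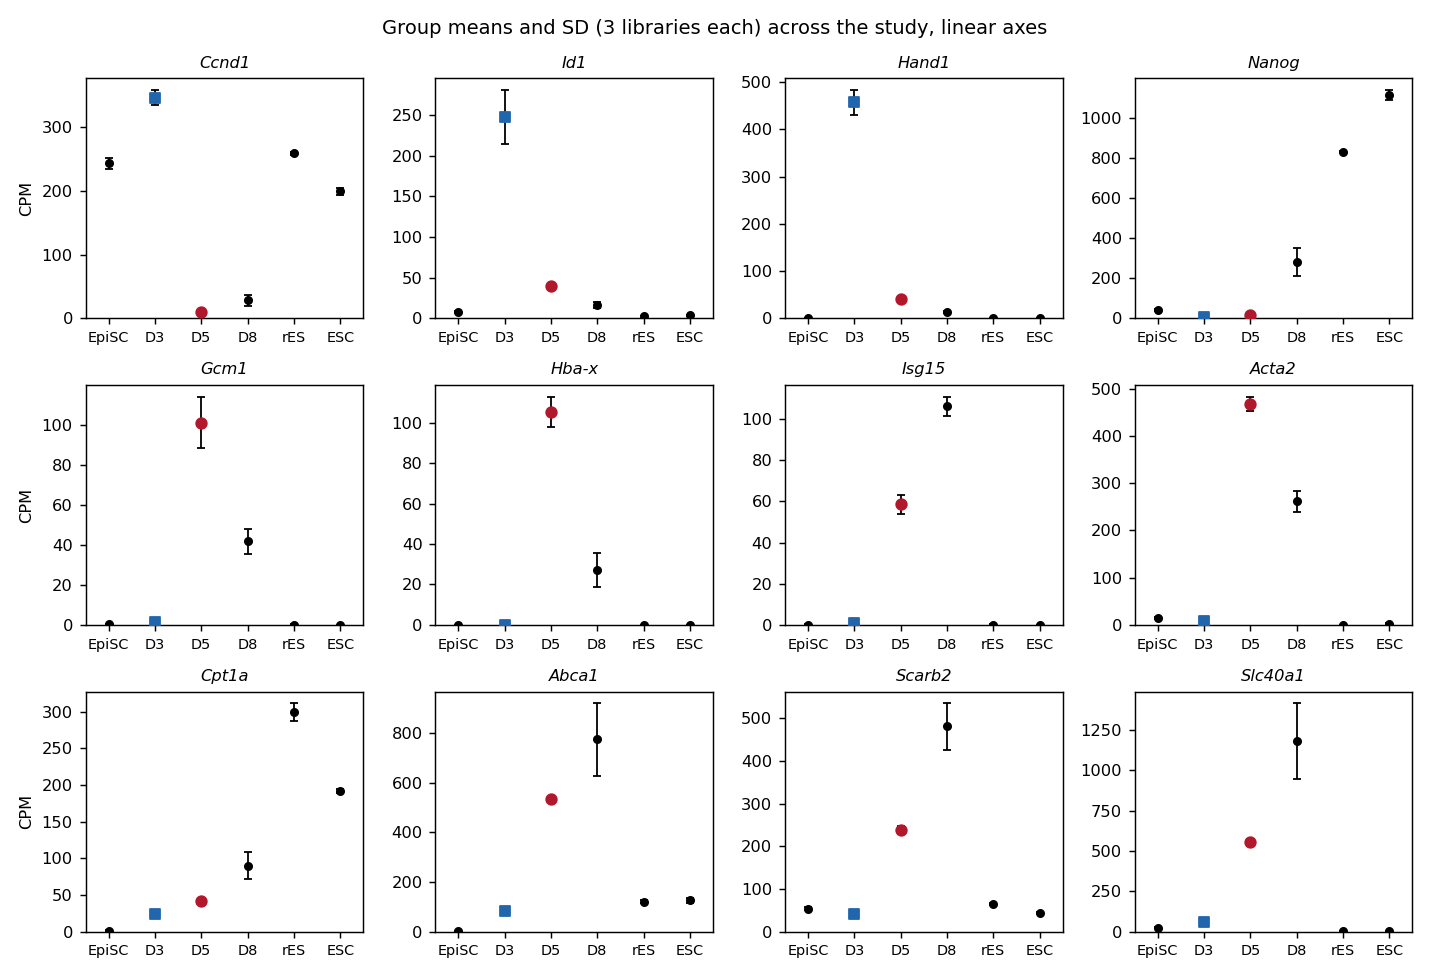
Mean level in CPM (y axes, linear) of 12 genes in the 6 groups of the study, from EpiSC through D3, D5 and D8 to rES, with ESC last; bars are SD over 3 libraries, D5 is the red circle and D3 the blue square. Hba-x and Gcm1 are highest at D5, Hand1 and Id1 at D3, and Nanog and Cpt1a in rES or ESC.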

How the data were processed

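The deposited values are unscaled counts, whole numbers for each gene symbol in every library, per the file headers. Ribosomal RNA was removed from total RNA with probes and RNase H, per the labels' protocols. The submitters' processing notes name bcl2fastq, Trim Galore and HISAT2 and the build mm10. Counting program, annotation and strand setting: not given in the sources used here. Reads of near-identical copies and of genes overlapping on opposite strands, as in the Hox and imprinted clusters, cannot be told apart. Counts come in steps: per library, a median of 314.5 genes had exactly 4, beside 157 with 3 and 105.5 with 5. The detection floor was therefore set at 12 counts per library, 0.197 CPM at D5 and 0.184 CPM at D3. Bounds and floors cover counting error only.

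All 18 libraries were fitted together with edgeR 4.0.16 (R 4.3.3, limma 3.58.1), with 12 residual degrees of freedom: filterByExpr kept 17545 of 25239 symbols, TMM factors were 0.945 to 1.05, and each comparison used the quasi-likelihood F test with Benjamini-Hochberg adjustment over all genes tested and a threshold of 0.05. Approximate SEs were taken from the F statistic, as the size of the log2 difference over its root. Library totals at D5 and D3 were 58.4 to 68.7 M counts. DESeq2 1.42.0 was an alternative. On data simulated for D5 against D3 with 17111 genes, 53.7%, 91% and 95.5% of genes changed 1.5-fold, 2-fold and 4-fold were recovered, with 3.03% false calls. The changed genes numbered 67, 67 and 66, far fewer than were called in the real data, and the rates may differ there. They were drawn only from genes with a mean above 2 CPM over the 18 libraries, so the recovery rates do not cover genes at lower levels. Same-numbered libraries of different groups did not deviate together (correlations -0.0607 to 0.0533 over 45 pairs), so replicates were taken as unpaired.

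Gene positions came from GENCODE vM21 and promoters from RefSeq, both on GRCm38, which is mm10. Named genes are the 15 largest called differences each way with at least 10 CPM at either day and no overlap, a panel of 12 lipid and pluripotency genes, and per list up to 5 called members each way with at least 5 CPM and up to 3 not called. Others are said to be chosen after their values were seen. The genes and lists were chosen with earlier results of these data known. A list of replication-dependent histone genes matched too few symbols and was left out. Some members of the lists enter the counts but are not reported by name here.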

Additional observations from a re-analysis of the deposited data

How the results depend on the processing

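Over 13 alternatives the number of genes called between D5 and D3 kept within 1.5 times of 10437. Leaving out 1 library at a time gave 9571 to 9939 calls. RLE scaling gave 10439, no filter 10201, a filter at 1 CPM 10111, DESeq2 10712, the 6 libraries alone 10224 and counts divided by 4 10558. With the replicate block 10107 genes were called, 5084 higher and 5023 lower, and 10045 of them were calls of the unblocked fit, although the numbers do not pair the samples. Upward calls made up 48.9% to 51.1% of calls. For D8 against D5, RLE scaling and DESeq2 moved the share of upward calls to 59.2% and 58.7% from 53.2%. Of 440 named genes, 324 were called. The call of 51 named genes changed in at least 1 setting: 18 lost it, and the others, not called in the main fit, gained one. Of the called genes 0 changed sign, and signs of genes not called were not compared. Genes that a filter dropped were not compared in that setting. Under the replicate block Msx2 and Slc44a1 lost their calls and Gnas gained one. DESeq2 called 1 gene of the 2-cell-like list higher, against 0 by edgeR. Neural genes called higher numbered 3, but 0 or 1 in 7 settings. The causes of these changes were not tested. Depth limits genes under the floor, such as Fgf5 at D3, whose folds are uncertain.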

Other observations

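The genes in this paragraph were chosen after their values were seen. The Serpinb9 family encodes inhibitors of granzyme B and related proteases, and several members are made by trophoblast. All 8 members tested were higher at D5, with a summed level of 501 to 553 CPM at D5, against 41.7 to 51.2 CPM at D3. Serpinb9b averaged 373 ± 8.39 CPM at D5 and 35.7 ± 3.13 CPM at D3 (edgeR, log2 3.39 ± 0.14, adjusted p = 1.72e-12), and Serpinb9e, in which the days were further apart, had 35.7, 44 and 51.5 CPM at D5, against 0.277, 0 and 0.228 CPM at D3. The members share sequence, so reads may have been split between them. Among genes of other roles that rose, App, the amyloid precursor, averaged 1084.4 ± 23.3 CPM at D5 and 183.2 ± 14.4 CPM at D3, and Psap, the precursor of the saposins that help lysosomal lipid breakdown, 2316.0 ± 75.8 CPM at D5 and 637.6 ± 17 CPM at D3. Gabrp, a GABA receptor subunit and among the 15 largest rises, had 129, 117 and 147 CPM at D5, against 0.62, 0.566 and 0.513 CPM at D3.

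Genes of the let-7 and Lin28 axis fell, again chosen after their values were seen. Of 6 genes of the Lin28, Trim71 and Igf2bp group 5 fell and 1, Igf2bp2, rose (283 ± 14.8 CPM at D5, 221 ± 2.86 CPM at D3). Igf2bp3 averaged 58.5 ± 3.04 CPM at D5 and 139 ± 9.02 CPM at D3, and Trim71 85.7 ± 7.25 CPM at D5 and 190 ± 10.6 CPM at D3. Hmga2, a chromatin protein whose transcript let-7 represses, had 25.8, 26 and 30 CPM at D5, against 475, 395 and 422 CPM at D3 (edgeR, log2 -3.98 ± 0.10, adjusted p = 1.39e-14). Mature let-7 was not measured in these libraries. Other large falls were in Igfbp4, an IGF-binding protein (47.2 ± 4.07 CPM at D5, 629 ± 60.9 CPM at D3), Ngfr, a neurotrophin receptor (2.17 ± 0.465 CPM at D5, 215 ± 17.6 CPM at D3), Vgf, a secreted neuropeptide precursor (0.776 ± 0.37 CPM at D5, 134 ± 19.5 CPM at D3), Mmp9, a gelatinase (1.05 ± 0.268 CPM at D5, 63.4 ± 6.56 CPM at D3), and Crabp1, a retinoic acid-binding protein (0.319 ± 0.219 CPM at D5, 42 ± 8.16 CPM at D3).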
